A study of Arabidopsis thaliana with 3 samples.

Results

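The expansin genes of Arabidopsis thaliana were compared between 2 populations of gip1 gip2 mutants, T34 and T12, and WT. Members were the genes whose description in the deposited tables contains the word expansin, which found 25 of 30271 genes. The expansin family as listed by locus holds 36 genes. Of the others, 10 are in the tables under descriptions that carry another name, and 1 (EXPA19) was not analysed here. T34 and T12 each come from the cross of gip1 (GABI_213D01) with gip2 (FLAG_36406), both insertion alleles, and the WT plants were offspring of a Ws x Col-0 cross. All groups thus mix the same pair of backgrounds, but whether in equal parts or at the same loci was not examined. The mutated genes encode GIP1 and GIP2, small subunits of the complexes with gamma-tubulin from which microtubules grow. The design text describes root growth defects of increasing severity over the populations, and T34 is taken here as the more severe one. Whole seedlings aged 9 days gave ribosomal-RNA-depleted, stranded total RNA libraries, 3 for each group. Nothing in the labels says whether the libraries of a group came from separate growths, so a p-value measures only how these libraries scatter, and that scatter may be technical.

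Expansins are secreted proteins that loosen plant cell walls without cutting their polymers. They act best at acidic pH, so wall loosening during growth depends both on expansins and on the plasma membrane proton pumps that acidify the wall. The family has the alpha-expansins (EXPA), the main wall-loosening group in Arabidopsis, the beta-expansins (EXPB), and the expansin-like A and B proteins (EXLA, EXLB), which share the domains of expansins and for which wall-loosening activity has not been established. Single members are known for particular cells, such as EXPA7 and EXPA18 in root hairs and EXPA14 and EXPA17 in lateral root formation.

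The libraries held 20963358 to 30438933 reads. Nuclear reads outside ribosomal RNA numbered 10076551 to 11347814 in T34 and 13137183 to 15287573 in T12, and 12349422, 649387 and 6291793 in WT replicates 1, 2 and 3. Nuclear ribosomal RNA took 36.6 to 40.4% of the reads in T34, 0.0988 to 1.00% in T12 and 18.3, 77.3 and 38.5% in WT replicates 1, 2 and 3. This share moved with the groups, and its part in the results was not tested. In WT replicate 2 a single read was worth 11.7 normalized counts, so this library is coarse for low genes. The counts of members called against WT are also given without it, and the counts for the other lists are not. GIP2 was covered by 2, 3 and 5 reads in T34, by 1 read per T12 library and by 4, 1 and 0 reads in WT, too few to check the labels, and GIP1 was not analysed here. Values below are normalized counts (reads divided by the library's size factor), and log2 fold changes are differences of log2(normalized count + 1) from a limma fit over 20871 genes, with a gene called when its adjusted p (Benjamini-Hochberg) was below 0.05.

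The sequences shown are those of the 4 members on which the results turn, the neighbours EXLA3 and EXLA1, which were both higher in the mutants, and the closest relatives EXPA4 and EXPA16, which went opposite ways. Each run is the 250 bases before the annotated start of the gene, on the gene's own strand, from the RefSeq assembly TAIR10.1. They lie at chr3:16892452-16892701 (plus strand), chr3:16895916-16896165 (plus strand), chr2:16545747-16545996 (minus strand) and chr3:20576250-20576499 (minus strand). Capitals mark matches, on either strand, to TTGAC (the core of the W-box bound by WRKY factors). GTCAA is the same motif read on the other strand.
EXLA3: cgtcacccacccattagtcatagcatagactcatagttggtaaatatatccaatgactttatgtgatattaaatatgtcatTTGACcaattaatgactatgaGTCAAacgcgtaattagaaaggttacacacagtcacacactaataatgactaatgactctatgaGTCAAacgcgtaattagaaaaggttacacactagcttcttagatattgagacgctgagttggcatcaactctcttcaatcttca
EXLA1: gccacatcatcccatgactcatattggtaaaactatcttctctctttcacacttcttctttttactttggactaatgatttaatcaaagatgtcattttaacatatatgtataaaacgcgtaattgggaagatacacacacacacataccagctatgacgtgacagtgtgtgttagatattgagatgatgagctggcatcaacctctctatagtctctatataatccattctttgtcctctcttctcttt
EXPA4: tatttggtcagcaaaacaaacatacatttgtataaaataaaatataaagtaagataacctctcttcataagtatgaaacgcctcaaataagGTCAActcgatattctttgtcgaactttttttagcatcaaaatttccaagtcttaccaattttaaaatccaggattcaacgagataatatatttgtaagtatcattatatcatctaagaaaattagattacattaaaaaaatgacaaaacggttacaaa
EXPA16: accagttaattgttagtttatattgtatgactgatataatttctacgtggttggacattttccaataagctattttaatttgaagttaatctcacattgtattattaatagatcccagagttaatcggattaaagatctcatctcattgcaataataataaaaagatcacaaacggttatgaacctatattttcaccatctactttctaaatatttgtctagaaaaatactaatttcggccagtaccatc

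The EXLA3 window held 3 matches to TTGAC and the EXPA4 window 1, and the EXLA1 and EXPA16 windows none. Of 27443 windows of the same length before protein-coding nuclear genes, 44.93% held at least 1. None of the 4 windows matched CACGTG (the G-box, present in 6.49% of all windows), CGTGNG (12.45%) or TGTCTC (an auxin response element, 10.95%), which were searched in the same way. CGTGNG can overlap a G-box and is not the element described for root hair expansins, which was not searched. Inside the EXLA3 window a run of 26 bases, ctatgagtcaaacgcgtaattagaaa, occurred at 154 and again at 90 bases before the start. The longest run shared by the EXLA3 and EXLA1 windows was 13 bases (ttagatattgaga), and by the EXPA4 and EXPA16 windows 9 bases. These matches describe letters and show no binding.

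Of the 25 members, 12 reached a normalized count of 10 in at least 3 libraries and were tested. Against WT, EXLA3, EXPA4, EXPA10, EXLA1 and EXLB1 were higher in T34, EXPA11 and EXPA16 were lower, and 5 members did not pass the test. In all, 45.2% of genes tested were called in that comparison (25.2% higher and 20% lower), so 7 called of 12 is read against a background in which calls were common. The median log2 fold change was 0.59 over the 12 members and 0.06 over all genes tested. In T12, EXLA3, EXPA10, EXLA1, EXLB1 and EXPA4 were higher than in WT and EXPA11 was lower, with 6 not called, a median of 0.66 and a background of 40.2% called (23.1% higher and 17% lower, median 0.06). The comparisons of T34 and T12 with WT share the WT libraries, so they are given side by side and not as support for one another.

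The normalized counts summed over the 25 members were 2854 to 3307 in T34, 2743 to 3059 in T12 and 1769 to 2466 in WT, with no overlap between either mutant population and WT. EXPA4 and EXLA1 were the largest parts of the T34 sum. EXPA4 averaged 918 normalized counts in T34, 462.5 in T12 and 231 in WT, and EXLA1 801, 756 and 247. EXPA11, the largest part of the WT sum, went the other way, at 210, 287 and 807. The sums thus weigh a few abundant genes most. Over all 35 expansins in the tables the sums were 6921 to 7036 in T34, 6320 to 6710 in T12 and 4340 to 6323 in WT, and here T12 and WT overlapped. Without WT replicate 2, 9 members were called in T34 (background 54.3%) and 6 in T12 (background 49.4%). With upper quartile scaling, which moved the median of all genes by -0.14 in T34 and -0.12 in T12, all genes split into 4456 higher and 5411 lower in T34 and 4141 higher and 4777 lower in T12, against 5262 and 4166 in T34 and 4827 and 3555 in T12 as deposited. The members' counts under that scaling stayed at 5 higher and 2 lower in T34 and at 5 higher and 1 lower in T12. In the authors' deposited table, 16 members had an adjusted p for T34 against WT, of which 6 were higher and 2 lower at an adjusted p under 0.05. For T12 against WT 14 had one, of which 6 were higher and 1 lower. The share of all genes called by the authors is not given here, so these counts have no background beside them. The shares above belong to the limma fit.

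**Figure D1:**
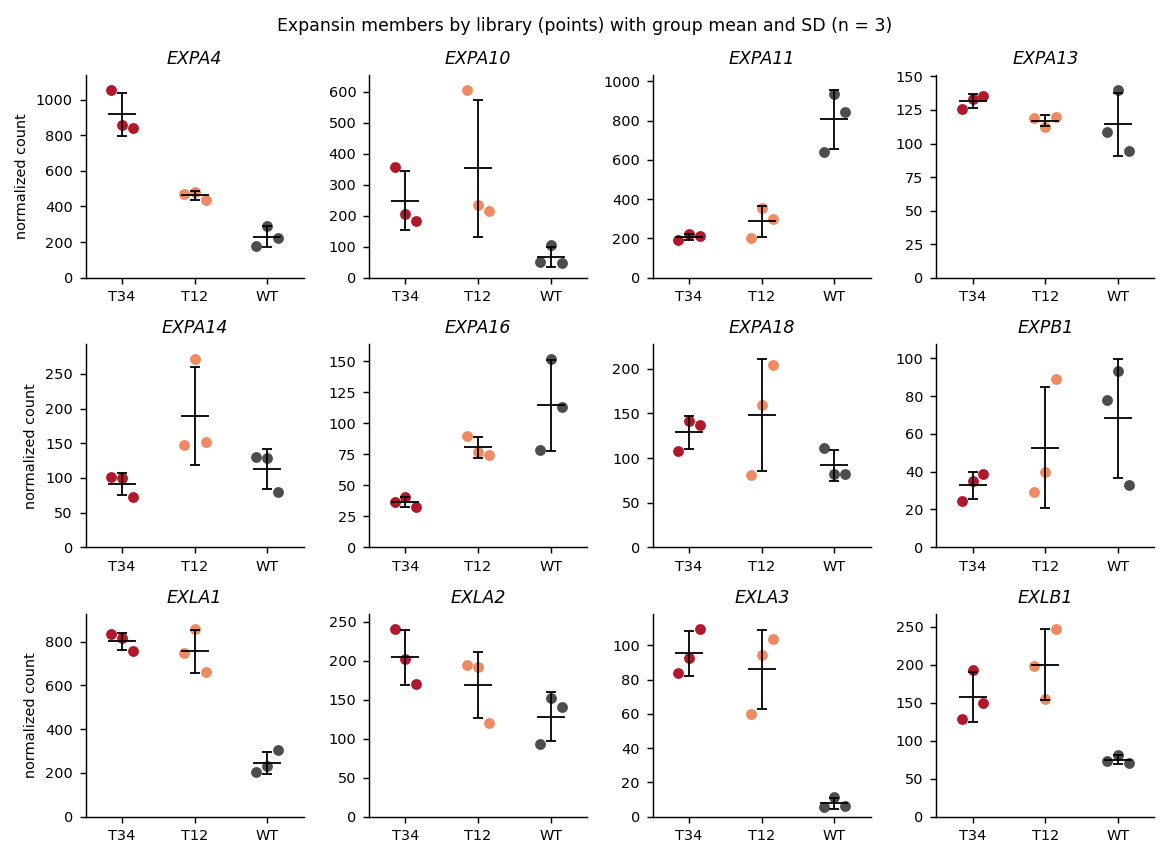
Normalized count (vertical axis, from 0) of the 12 members tested in each T34, T12 and WT library, with points for libraries and bars for the group mean and SD (n = 3). EXLA3 sits between 59.9 and 110 in the mutant libraries and at 11.7 or less in WT, whereas EXPA11 sits at 357 or less in the mutant libraries and at 639 or more in WT.

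Among the expansin-like genes, EXLA3 (AT3G45960) had the largest fold change of the members. It had 83.8, 92.6 and 110 normalized counts in T34, 59.9, 94.3 and 104 in T12, and 5.53, 11.7 and 6.37 in WT, where these values rest on 9, 1 and 5 reads. Every mutant library stood above every WT library, and the highest WT value rests on 1 read. The log2 fold change was 3.50 (SE 0.31, adjusted p = 3.28e-05) in T34 and 3.32 (SE 0.31, adjusted p = 5.21e-05) in T12, and 3.79 and 3.61 without WT replicate 2. In these RNAs from whole seedlings, a change in the number of cells of a type and in the RNA per cell cannot be told apart.

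EXLA1 (AT3G45970) is the next gene on the same strand of chromosome 3, and its transcript is 81.6% identical to that of EXLA3 over 779 aligned bases. How reads that match several genes were counted is not given in the sources used here. EXLA1 had 833, 814 and 756 normalized counts in T34, 746, 859 and 663 in T12, and 205, 234 and 303 in WT. The mutant libraries all lay above WT and overlapped each other. Its log2 fold change was 1.71 (SE 0.16, adjusted p = 3.55e-05) in T34 and 1.62 (SE 0.16, adjusted p = 5.71e-05) in T12. The gene overlaps AT3G45980 on the opposite strand by 22 bases, and the strand setting of the counting is not given. AT3G45980 averaged 281 normalized counts in T34, 224 in T12 and 390 in WT, and its part in the EXLA1 values was not tested.

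EXLA2 (AT4G38400), whose loss is known to alter the response to Botrytis infection, had 241, 202 and 171 normalized counts in T34, 194, 192 and 120 in T12, and 93.4, 152 and 140 in WT. T34 lay above WT in every library, and T12 overlapped both. Its log2 difference of 0.68 (SE 0.25) in T34 missed the threshold (adjusted p = 0.0503), which it passed in 6 of 17 alternative settings, among them edgeR (adjusted p = 0.0259) and the fit without WT replicate 2 (adjusted p = 0.0267). In the authors' deposited table its adjusted p for T34 was 0.049.

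EXLB1 (AT4G17030), the single expansin-like B gene, had 129, 194 and 150 normalized counts in T34, 199, 155 and 247 in T12, and 73.1, 81.8 and 70.1 in WT. All mutant libraries exceeded all WT libraries. The log2 fold change was 1.04 (SE 0.21, adjusted p = 0.00311) in T34 and 1.38 (SE 0.21, adjusted p = 0.000787) in T12. All 4 expansin-like genes were tested, and 3 of them were called higher in each mutant population, with none lower, where 25.2% of all genes were called higher in T34 and 23.1% in T12.

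The alpha-expansins were split. EXPA4 (AT2G39700), known with EXPB5 for a role in pollen tube growth, had 1056, 860 and 838 normalized counts in T34, 470, 482 and 436 in T12, and 176, 292 and 224 in WT. The 3 groups formed separate steps, with T34 highest and WT lowest. The log2 fold change was 2.01 (SE 0.18, adjusted p = 3.05e-05) in T34 and 1.03 (SE 0.18, adjusted p = 0.00167) in T12. The pollen markers LAT52, VGD1 and PPME1 were near 0, with a summed normalized count of 0.747 to 1.58 in T34, 2.80 to 4.57 in T12 and 5.10 to 23.4 in WT. Each marker had at most 5 reads in any library, and the 23.4 rests on 2 PPME1 reads in WT replicate 2.

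EXPA16 (AT3G55500), the expansin closest to EXPA4 in transcript sequence (81.6% identity over 745 bases), moved the other way. It had 36.4, 40.3 and 32.7 normalized counts in T34, 90.2, 76.9 and 74.6 in T12, and 78.6, 152 and 113 in WT. T34 lay below all other libraries, whereas T12 and WT overlapped. EXPA16 was 2.99-fold lower in T34 than in WT (log2 fold change -1.58, SE 0.24, adjusted p = 0.000684), and the T12 difference of -0.46 (SE 0.24) was not called (adjusted p = 0.159), except without WT replicate 1 (-0.70, adjusted p = 0.0271).

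EXPA10 (AT1G26770), an expansin studied in leaf growth and pedicel abscission, was the most variable of the called members. It had 357, 207 and 182 normalized counts in T34, 607, 234 and 217 in T12, and 49.1, 105 and 45.9 in WT. T12 replicate 1 stood far above its group's other libraries, and all mutant libraries stood above WT. The log2 fold change was 1.93 (SE 0.46, adjusted p = 0.00791) in T34 and 2.32 (SE 0.46, adjusted p = 0.00351) in T12, and 1.84 in T12 without its replicate 1.

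EXPA11 (AT1G20190) was the member called lower in both populations. It had 194, 225 and 210 normalized counts in T34, 204, 357 and 299 in T12, and 639, 935 and 846 in WT. The highest mutant library was below the lowest WT library. EXPA11 was 3.79-fold lower in T34 (log2 fold change -1.92, SE 0.21, adjusted p = 0.00011) and 2.85-fold lower in T12 (-1.51, SE 0.21, adjusted p = 0.000551). The 7 calls in T34 and the 6 in T12 held in each of the 17 alternative settings.

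The other members tested did not pass the test against WT. EXPA13 (AT3G03220) had 126, 133 and 136 normalized counts in T34, 119, 112 and 120 in T12, and 109, 140 and 94.3 in WT, and EXPA13 was called only without WT replicate 2 in T34 (log2 fold change 0.37, adjusted p = 0.025). EXPB1 (AT2G20750), the 1 beta-expansin of the rule that was tested, had 24.5, 35.1 and 38.5 in T34, 29.1, 39.8 and 89.2 in T12, and 78.0, 93.5 and 33.1 in WT. The groups overlapped, and EXPB1 was called lower in T34 only without WT replicate 3 (-1.38, adjusted p = 0.0389).

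The lateral root expansin EXPA14 (AT5G56320) had 101, 99.4 and 72.8 normalized counts in T34, 147, 271 and 151 in T12, and 130, 129 and 80.3 in WT. T12 lay above both other groups in every library. Its log2 difference from WT was -0.29 (SE 0.28, adjusted p = 0.438) in T34 and 0.72 (SE 0.28, adjusted p = 0.0719) in T12, where edgeR and DESeq2 on recovered reads called it (adjusted p = 0.0471 and 0.0363) and the authors' deposited table gives 0.029. The root hair expansin EXPA18 (AT1G62980) had 108, 141 and 137 in T34, 80.5, 159 and 205 in T12, and 112, 81.8 and 81.6 in WT. The groups overlapped, and its T12 difference of 0.60 (SE 0.31, adjusted p = 0.159) was called only without T12 replicate 1 (0.98, adjusted p = 0.00986). EXPA18 overlaps AT1G62978, not analysed here, by 46 bases on the opposite strand.

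The 13 members not tested averaged at most 9.83 normalized counts. Summed over a group's 3 libraries, EXPA2 (AT5G05290), a seed germination expansin, had 22 reads in T34, 20 in T12 and 24 in WT, EXPA12 (AT3G15370) had 9, 21 and 14, and EXPA20 (AT4G38210) had 22, 17 and 7. EXPA20 and EXPA21 each lie almost wholly opposite an antisense gene, which adds to the doubt about their reads. The beta-expansins EXPB2 (AT1G65680), EXPB4 (AT2G45110), EXPB5 (AT3G60570) and EXPB6 (AT1G65681) had at most 8 reads in any group. The remaining 6 are neighbours on chromosome 5, and within this cluster EXPA22 and EXPA26 were 97.1% identical in transcript and EXPA23 and EXPA25 96.8%, so reads could have been split or lost among them. EXPA21 (AT5G39260), EXPA22 (AT5G39270), EXPA23 (AT5G39280), EXPA24 (AT5G39310), EXPA25 (AT5G39300) and EXPA26 (AT5G39290) had 0 to 8 reads per group. With so few reads these members were not tested, and 0 reads in a library allows up to 3 reads by counting error. When the filter was left out, limma called 1 of them, EXPA25, lower in T34 than in WT (adjusted p = 0.0289), on 0 reads in T34, 7 in T12 and 5 in WT.

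**Figure D2:**
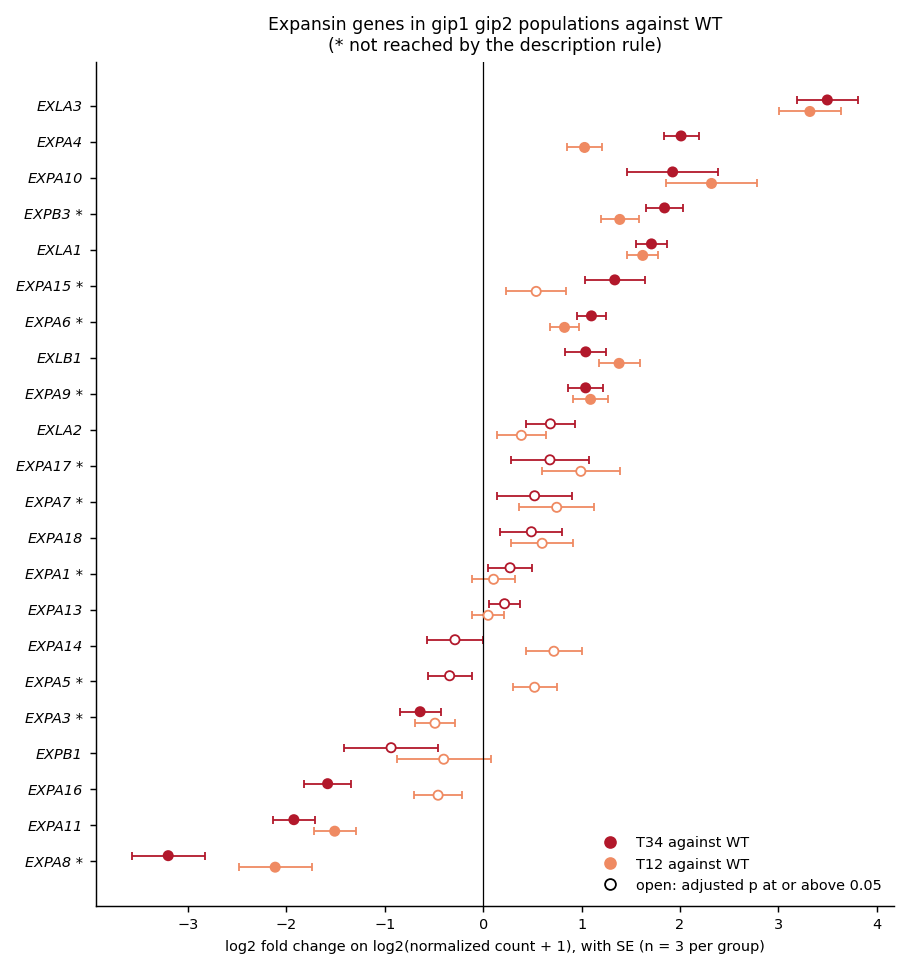
Log2 fold change against WT (horizontal axis, on log2(normalized count + 1), with SE, n = 3 per group) of the 22 expansin genes tested, in T34 and in T12, with filled points for calls at an adjusted p under 0.05. EXLA3 is the highest gene in both populations, at 3.50 and 3.32, and EXPA8, which the description rule does not reach, the lowest, at -3.20 and -2.11.

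The 10 expansins that the description rule does not reach were all tested, and 4 were higher and 2 lower in T34, and 3 higher and 1 lower in T12, where 45.2% of all genes were called in T34 and 40.2% in T12. EXPA8 (AT2G40610) had 41.1, 58.3 and 107 normalized counts in T34, 99.3, 159 and 160 in T12, and 436, 853 and 562 in WT. It thus resembled EXPA11 in falling below every WT library in both populations, with a log2 fold change of -3.20 (SE 0.37, adjusted p = 0.000142) in T34 and -2.11 (SE 0.37, adjusted p = 0.0018) in T12. EXPB3 (AT4G28250), a beta-expansin, rose by a log2 fold change of 1.84 (SE 0.19, adjusted p = 7.81e-05) in T34 and 1.39 (SE 0.19, adjusted p = 0.000496) in T12. EXPA6 and EXPA9 were also higher in both, by log2 fold changes of 1.10 and 1.04 in T34 and 0.83 and 1.09 in T12.

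EXPA15 was called higher in T34 (1.34, SE 0.30, adjusted p = 0.0063), and in T12 its difference of 0.54 was called only without T12 replicate 1 (0.88, adjusted p = 0.0258). EXPA3 was called lower in T34 (-0.64, SE 0.21, adjusted p = 0.0314), a call lost without any 1 T34 library, WT replicate 2 or WT replicate 3 (adjusted p up to 0.104). EXPA1, EXPA5, the root hair gene EXPA7 and the lateral root gene EXPA17 were not called by limma in either population. In T12, edgeR and DESeq2 called EXPA5 higher (adjusted p = 0.0148 and 0.0255) and EXPA17 higher (0.0196 and 0.0158), and the authors' deposited table gives 0.0401 and 0.0457 for these genes. Without WT replicate 2, EXPA1 and EXPA17 were called higher in T34 (0.50 and 1.02, adjusted p = 0.0451 and 0.0352), and EXPA5 and EXPA17 higher in T12 (0.74 and 1.33, adjusted p = 0.0076 and 0.0124). Over all 22 expansin genes tested, 9 were higher and 4 lower in T34 (median 0.60), and 8 were higher and 2 lower in T12 (median 0.66). Of all genes, 25.2% were higher and 20% lower in T34 and 23.1% higher and 17% lower in T12, with a median of 0.06 in each.

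**Figure D3:**
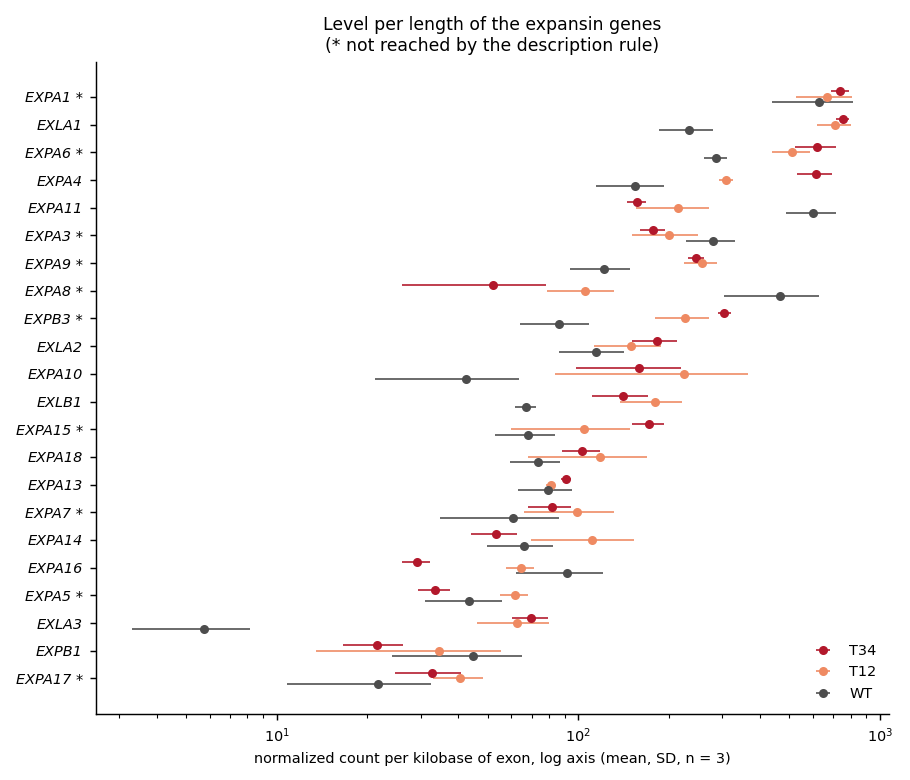
Mean normalized count per kilobase of exon (horizontal log axis, with SD, n = 3) of the 22 expansin genes in T34, T12 and WT, ordered by their mean over the groups. EXPA1 is at or near the top in each group, whereas EXPA8 and EXPA11 stand high in WT and lower in T34 and T12.

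Per kilobase of exon, the order of the levels differed between groups. In T34 EXLA1 (752 ± 37.5 normalized counts per kilobase, SD, n = 3) and EXPA1 (738 ± 51.9) led, followed by EXPA6 (618 ± 95.8) and EXPA4 (612 ± 80.2), and neither of these pairs differed beyond its spread. In T12 EXLA1 (710 ± 92.3) and EXPA1 (666 ± 139) again led within each other's spread, ahead of EXPA6 (511 ± 74.0) and EXPA4 (308 ± 16.0). In WT EXPA1 (628 ± 188), EXPA11 (601 ± 113) and EXPA8 (466 ± 162) were highest and overlapped in spread, and EXLA1 stood at 232 ± 47.7. At the low end EXLA3 reached 69.7 ± 9.61 in T34 and 62.8 ± 16.9 in T12, against 5.75 ± 2.44 in WT, the lowest of the 22 genes there. The gene with the largest fold change thus stayed far below EXPA1 and EXLA1 in every group.

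**Figure D4:**
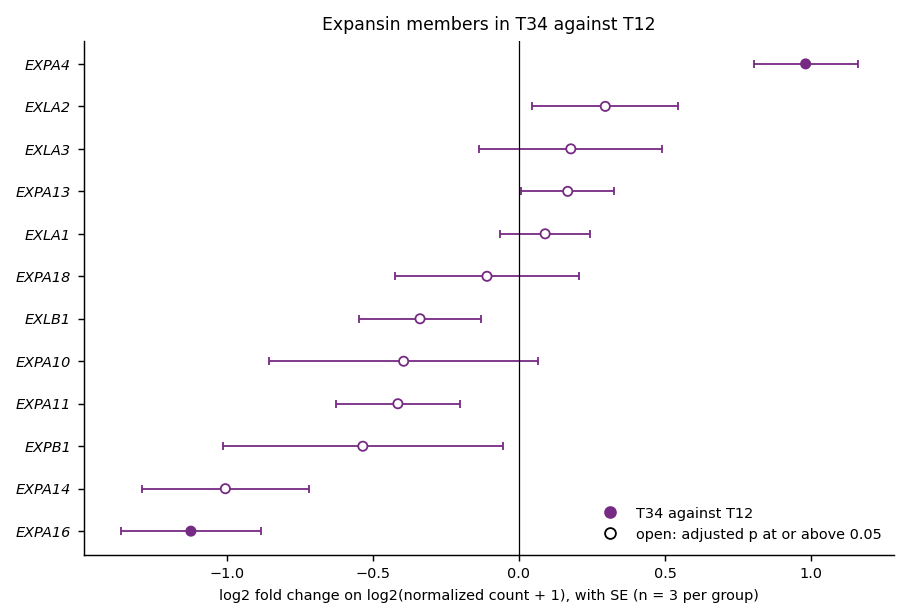
Log2 fold change of T34 against T12 (horizontal axis, on log2(normalized count + 1), with SE, n = 3 per group) for the 12 members tested, with filled points for calls at an adjusted p under 0.05. EXPA4 (0.98) and EXPA16 (-1.12) are the filled points, at opposite ends.

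T34 and T12 were compared directly to ask whether the more severe population differed in its expansins. EXPA4 was higher and EXPA16 lower in T34, and 10 of 12 members were not called, in a comparison with 2.38% of all genes called (0.858% higher and 1.52% lower). EXPA4 was 1.97-fold higher in T34 (log2 fold change 0.98, SE 0.18, adjusted p = 0.0302), and EXPA16 was 2.18-fold lower (-1.12, SE 0.24, adjusted p = 0.0485). For each, all 3 T34 libraries lay beyond all 3 T12 libraries. Both calls were lost when any 1 T34 or T12 library was left out (adjusted p up to 0.139 for EXPA4 and 0.18 for EXPA16), while the log2 fold changes kept within 0.88 to 1.04 and -1.20 to -1.04. EXPA16 was also not called without WT replicate 3, without the filter or with upper quartile scaling (adjusted p = 0.0664, 0.0704 and 0.0511). EXPA4 was called in 11 and EXPA16 in 8 of 17 alternative settings. Without WT replicate 2 both were called (adjusted p = 0.00422 and 0.00798), where 1898 of all genes were called. Without 1 T34 or T12 library, 14 to 141 of all genes were called, against 497 with all libraries.

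EXPA14 was lower in all T34 libraries than in any T12 library, with a log2 difference of -1.01 (SE 0.28) that missed the threshold (adjusted p = 0.12) and passed it with edgeR and DESeq2 (adjusted p = 0.0447 and 0.0109). For EXLA3, EXLA1 and EXPA10 the difference between T34 and T12 was 0.18 (SE 0.31), 0.09 (SE 0.16) and -0.39 (SE 0.46), each smaller than its SE. Of the 10 expansins outside the rule, limma called 0 between the populations, with 4 at an unadjusted p under 0.05. EXPA5 (-0.86, SE 0.22, adjusted p = 0.0941), which was below every T12 library in T34, was the 1 called by edgeR and by DESeq2 (adjusted p = 0.0173 and 0.00727) and passed with limma without WT replicate 2 (0.0128). Over all genes edgeR called 1371 and DESeq2 1624 between T34 and T12. The median over the 12 members was -0.22, against 0.005 over all genes tested.

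The plasma membrane proton ATPases (AHA) acidify the wall in which expansins act. Of 10 tested, 3 were higher and 3 lower in T34, and 1 was higher and 2 lower in T12, beside 45.2% of all genes called in T34 and 40.2% in T12. AHA2, the main pump of the root, averaged 5377 normalized counts in T34, 6240 in T12 and 10010 in WT, a log2 fold change of -0.86 (SE 0.17, adjusted p = 0.00318) in T34 and -0.65 (SE 0.17, adjusted p = 0.0151) in T12 (-0.43 without WT replicate 1). AHA1, its close relative, was higher in T34 by 0.62 (SE 0.10, adjusted p = 0.000775) and in T12 by 0.54 (SE 0.10, adjusted p = 0.00213), and AHA5 was lower by -0.79 in T34 (adjusted p = 0.00286) and -0.52 in T12 (adjusted p = 0.0256, lost without T12 replicate 2 or 3 or WT replicate 3, up to 0.0917). AHA9 had 27, 28 and 19 reads in T34 and 9, 0 and 4 reads in WT, and was called higher in T34 (2.57, adjusted p = 0.0146, with 1.68 without WT replicate 2, 1.03 at a pseudocount of 12, and a call lost without T34 replicate 1 or 2, adjusted p = 0.0503 and 0.0506). The summed level of the 11 pumps overlapped between groups, at 18344 to 18447 in T34, 18479 to 19198 in T12 and 17402 to 22854 in WT.

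The PP2C.D phosphatases, several of which are known to inactivate these pumps, had 3 higher and 4 lower of 9 in T34 and 3 higher and 2 lower in T12, where 25.2% of all genes were higher and 20% lower in T34 and 23.1% higher and 17% lower in T12. PP2C.D1 averaged 79.3 normalized counts in T34, 624 in T12 and 1786 in WT. The T12 mean rests on replicate 1, with 1307 normalized counts against 333 and 231 in replicates 2 and 3. PP2C.D1 had a log2 fold change of -4.52 (SE 0.58, adjusted p = 0.000248) in T34 and -1.91 (SE 0.58, adjusted p = 0.0263) in T12 (-2.65 without T12 replicate 1), the call in T12 being lost without T12 replicate 2 or 3 or WT replicate 2 or 3 (adjusted p up to 0.0914) and with edgeR and DESeq2 (adjusted p = 0.0517 and 0.0722). PP2C.D8 and PP2C.D9 rose in both, by 2.12 and 2.35 in T34 and by 1.70 and 2.16 in T12. The rise of PP2C.D9 was 1.59 in T34 and 1.40 in T12 without WT replicate 2.

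The bHLH factors RHD6 and its relatives control root hair growth and the root hair expansins. Of 8 tested, limma called 1 higher and 1 lower in each population against WT, beside 45.2% of all genes called in T34 and 40.2% in T12. In T34 edgeR called 4 of these factors and DESeq2 3, beside 10386 and 9716 of the 20871 genes tested. In T12 each called 4, beside 9512 and 8914 of all genes. RSL1 had 1 read in each T34 library, against 14, 17 and 19 reads in T12 and 21, 3 and 7 reads in WT, and was called lower in T34 than in WT (adjusted p = 0.000993) and than in T12 (adjusted p = 0.0412, lost without any 1 T34 or T12 library, up to 0.178, and at a pseudocount of 12, 0.187). LRL2 was called higher in T34 (0.54, adjusted p = 0.0457), and RHD6 higher (1.02, adjusted p = 0.0416) and LRL1 lower (-0.75, adjusted p = 0.0394) in T12. These calls were lost without any 1 library other than WT replicate 2 for LRL2 and RHD6 (adjusted p up to 0.154 and 0.117), and without any 1 T12 library, T34 replicate 1 or T34 replicate 3 for LRL1 (up to 0.106). LRL2 and RHD6 were called in 6 of 17 alternative settings and LRL1 in 11. LRL1 was at -0.44 without WT replicate 2, and RHD6 at 0.61 without WT replicate 3.

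Of 11 root hair cell markers, limma called 0 in T34, with 3 at an unadjusted p under 0.05 and 2 called by edgeR and by DESeq2, and 3 were higher in T12, against 45.2% of all genes called in T34 and 23.1% called higher in T12. Their summed level was 1357 to 1441 in T34, 1069 to 2308 in T12 and 947 to 1905 in WT, beside which EXPA7 and EXPA18 were not called. The 3 marker calls in T12 were RHS13, RHS18 and LRX2. RHS13 was called in 17 of 17 alternative settings, RHS18 in 12 and LRX2 in 7. With 1 library left out, the limma adjusted p reached 0.0492, 0.114 and 0.149. Of the regulators of lateral root expansins, 5 were tested, beside 45.2% of all genes called in T34 and 40.2% in T12. In T34 limma called 3, and edgeR and DESeq2 each called 4. In T12 limma called 0, with 2 at an unadjusted p under 0.05, and edgeR and DESeq2 each called 1. Of the 20871 genes tested, edgeR called 10386 in T34 and 9512 in T12, and DESeq2 called 9716 and 8914. LBD16 had the largest differences from WT, 2.78 in T34 and 2.86 in T12 (SE 1.19). Limma did not call it (adjusted p = 0.0855 and 0.0843), and it had 0 reads in WT replicate 2. ARF19, an activator of auxin response, was called higher in T34 by limma (0.79, adjusted p = 0.0238). That call was lost without T34 replicate 2 or 3 or WT replicate 1 or 3 (up to 0.0868) and with upper quartile scaling (0.0551). The auxin repressors IAA14 and IAA3 were lower in T34 (-1.39 and -1.81, adjusted p = 0.00235 and 0.0014).

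Markers of other tissues moved with the groups as well. The counts below stand beside 25.2% of all genes called higher and 20% lower in T34, and 23.1% higher and 17% lower in T12. Of 12 root markers, 7 were lower and 1 higher in T34, and 6 lower and 1 higher in T12, with a summed level of 893 to 1037 in T34, 801 to 1282 in T12 and 1085 to 1875 in WT. The 1 called higher, PHT1;1, was the largest part of the mutant sums. It averaged 498 normalized counts in T34, 566.5 in T12 and 193 in WT, so the sums understate the fall of the markers called lower. The 5 leaf markers were all lower in T34, with a summed level of 53360 to 63884, and in T12 3 were lower and 1 higher (98434 to 104274), against 112160 to 181103 in WT. Of 5 guard cell markers, limma called 1 lower in T34, with 3 at an unadjusted p under 0.05. There edgeR and DESeq2 each called 2, beside 10386 and 9716 of all genes. In T12 limma, edgeR and DESeq2 called 0 (1 at an unadjusted p under 0.05 with limma). The summed levels of the guard cell markers were 261 to 270 in T34, 387 to 587 in T12 and 479 to 561 in WT. Root, root hair and leaf markers were thus present in every group, as the label of whole seedlings implies, and their part in the changes of the expansins was not tested.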

How the data were processed

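RNA was sequenced in 9 libraries, 3 each of T34, T12 and WT. Library 7 appears in the labels of T34 as well as WT, and library 6 in none, so each was assigned by the table in which its column stands (7 as WT, 6 as T34). Per the submitters' processing notes the build was TAIR10 and the tools named are DESeq2 1.22.2, featureCounts 1.6.2, HISAT2 2.1.0 and cutadapt 1.8.1. Neither strand setting nor multi-mapping treatment is given in the sources used here. The authors deposited 2 tables of 30271 genes (T34 against WT, and T12 against WT). Per the file headers the columns are a log2 fold change and its error, the p-value before and after adjustment, a test score and the mean over libraries. The deposited signal of each library is a normalized count, the read count divided by a size factor. At a tolerance of 0.01, 100% of the values were whole multiples of 1 read, so whole reads were recovered from them.

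Tests were run with limma-trend (limma 3.58.1, R 4.3.3) on log2(normalized count + 1) over all 9 libraries, for genes with at least 10 normalized counts in at least 3 libraries (20871 genes). Calls were made at a Benjamini-Hochberg adjusted p under 0.05, adjusted over all genes tested. For low genes a fold change on this scale depends on the pseudocount and can err either way. AHA9, with 0 reads in WT replicate 2, was at 2.57 in T34 against WT and at 1.68 without that library. The alternatives were pseudocounts of 0.5 and 12, no filter, upper quartile and TMM factors, edgeR 4.0.16 and DESeq2 1.42.0 on the recovered reads, only the 2 groups compared, and each library left out in turn. On the recovered reads edgeR called 10386 genes in T34, 9512 in T12 and 1371 between T34 and T12. Intervals and floors cover counting error only.

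Members with a mean of at least 20 normalized counts are given by library, the others by reads, and of each regulator list the 3 called genes of largest change are named. The members, the lists and this rule were chosen with earlier results of these data known. Names, exon lengths and the windows before gene starts came from the RefSeq assembly TAIR10.1, and transcripts were aligned with BLAST 2.17.0. The deposited tables hold no coordinates. Ribosomal RNA reads were taken as annotated rRNA genes plus 4 loci inside the rDNA units, identified after their values were seen.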

Additional observations from a re-analysis of the deposited data

Results flagged for a closer look

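EXPA4 and EXPA16 stood out because their effects against WT differed between the populations, as tested in the direct comparison of T34 with T12. The difference was 0.98 on the log2 scale for EXPA4 (SE 0.18, adjusted p = 0.0302 with limma), higher in 3 of 3 T34 libraries than in any T12 library. For EXPA16 it was -1.12 (SE 0.24, adjusted p = 0.0485), lower in 3 of 3 T34 libraries. Neither call held with any 1 T34 or T12 library left out (adjusted p up to 0.139 and 0.18), where 14 to 141 of all genes were called instead of 497. Both held without WT replicate 2 (adjusted p = 0.00422 and 0.00798). In all, EXPA4 was called in 11 and EXPA16 in 8 of 17 alternative settings.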

How the results depend on the processing

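Against WT, every member call in T34 and T12 held in all 17 alternatives, with 7 to 9 members called in T34 and 6 to 7 in T12 when 1 library was left out. Over all genes the counts then ranged from 7341 to 11327 in T34 and from 6350 to 10320 in T12. Between T34 and T12, 497 genes were called, against 1371 with edgeR, 1624 with DESeq2, 2144 with only these 2 groups fitted, and 14 to 1898 with 1 library left out. The 1898 came from leaving out WT replicate 2. Members called between T34 and T12 were 2, against 1 without the filter, 1 with upper quartile scaling, 3 with edgeR, 3 with DESeq2 and 0 to 2 with 1 library left out. Signs turned only for differences that were not called. With upper quartile scaling EXPA1 and EXPA13 were at -0.018 and -0.072 in T12 against WT. With 1 library left out they ranged from -0.10 to 0.33 and from -0.078 to 0.21. Between T34 and T12 the ranges were -0.0057 to 0.30 (EXPA1), -0.10 to 0.051 (EXPA9), -0.69 to 0.081 (EXPA10), -0.49 to 0.17 (EXPA18), -0.000904 to 0.19 (EXLA1) and -0.060 to 0.33 (EXLA3). The cause was not tested. Over the 22 expansin genes and 3 comparisons, 1061 values kept sign and call, 29 gained a call, 20 lost one and 12 changed sign. Without the filter EXPA25, with 0 reads in T34, 7 in T12 and 5 in WT, was called lower in T34 (adjusted p = 0.0289). With 1 library left out, a group of 2 is assumed to vary like the others. Depth limits the low members, above all in WT replicate 2. No paired analysis was possible because the labels give no replicate numbers shared by the groups.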
